A study of Mus musculus with 4 samples.

Results

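Immediate early, stress and chaperone genes were followed in memory and naive CD8 T cells. A probe set was a member when its single annotated symbol began with Fos, Jun, Egr, Ier, Nr4a, Dusp, Atf, Gadd45, Hsp, Dnaj, Nfkb or Zfp36, or was Ppp1r15a or Tnfaip3. The rule found 91 probe sets of 69 genes, out of 6137 genes with a single symbol in the series. Of these genes 53 were on the A chip, 23 on the B chip and 7 on both. Of the 69, Hspg2 encodes the matrix proteoglycan perlecan and shares only its letters with the heat shock genes.

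The memory group was made from spleen cells of B6.2.16 females without RAG1, cultured with HY peptide for 4 days. They were transferred into hosts that were also female and RAG1-deficient and recovered 200 days later from spleen and lymph nodes with magnetic beads, at a stated purity over 80%. The naive group was CD8 T cells from lymph nodes of B6.2.16 females, likewise without RAG1, at a stated purity over 85%. B6.2.16 is a T cell receptor transgene specific for the male antigen HY, and RAG1 is needed to rearrange antigen receptor genes, so hosts form no T or B cells of their own but keep myeloid and NK cells. Animal age, any pooling and the promoter of the transgene were not given in the sources used here. Each group was read on 1 A and 1 B chip of an Affymetrix mouse set, which gave 4 arrays. Since no group had a replicate array of a chip, no error could be estimated, and no p-value or standard error is given. Tissue of origin, culture, transfer and sorting cannot be told apart from the group.

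Immediate early genes are transcribed within minutes of a stimulus, from promoters whose factors are already in place, and many of their transcripts decay as fast. They encode transcription factors of the AP-1, EGR and NR4A families together with proteins that end the response, such as the DUSP phosphatases that inactivate MAP kinases, the inhibitors of NF-kappaB and the ZFP36 proteins that destabilise mRNA. In T cells they follow engagement of the antigen receptor, and they are also known to be induced while tissue is dissociated and cells are sorted. Chaperones of the HSP70 and HSP90 families fold proteins with the help of DNAJ co-chaperones and increase under heat and other protein stress.

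Across the 28 member probe sets of the B chip, memory and naive values correlated with a Spearman coefficient of 0.92, and across all 6540 of its gene probe sets with 0.85. The A chip gave -0.058 for its 63 member probe sets and 0.10 for all 6529. The 55 control probe sets correlated at 0.96 between the memory A and memory B arrays, and at 0.21 between the naive A and naive B arrays. The naive A values thus did not follow their probe sets, and members on the A chip are described on the memory array alone. All correlations are across probe sets, which are not independent replicates. Values are intensities scaled to the same trimmed mean. On the B chip values under 423, the floor, were treated as noise, and a ratio with 1 array under it is a bound. A gene is represented by its brightest probe set.

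Macrophage markers moved with the group, while granulocyte and erythroid markers had no common direction. On the B chip all 11 macrophage markers with a symbol were measured, 6 of them at least 2-fold higher in memory and 0 lower, and they summed to 28398 in memory against 16409 in naive cells. None of the 11 was under the floor in memory and 1 was in naive cells. The 7 T cell markers summed to 5186 in memory against 8953 in naive cells, with 4 of them under the floor in memory and 3 in naive cells. Most of that difference was Thy1, a bright T cell surface protein, which read 2848 in memory against 6184 in naive cells and had a log2 ratio of -0.14 after a lowess normalization, which takes the trend of the ratios with brightness out. Of the others, Cd3d, a chain of the T cell receptor complex, read 959 in memory against 1115 in naive cells, and Cd8a, the coreceptor chain, 498 in memory against 352 in naive cells, there under the floor. The 4 granulocyte markers summed to 7772 in memory against 8774 in naive cells, and the 1 B cell marker was under the floor on both arrays. The 3 erythroid markers went opposite ways. Alas2, the first enzyme of haem synthesis, read 1944 in memory against 183 in naive cells, under the floor, while the globins Hba-a1 and Hbb-b2 read 2007 and 2289.9 in memory against 11296 and 6105 in naive cells. Early and stress genes are expressed by many of these cells, and the part of other cells in their ratios was not tested. In such bulk RNA, fewer cells of a type and less RNA per cell cannot be told apart.

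Members were above the floor more often than other genes. On the B chip 17 of 23 member genes (73.9%) had at least 1 array above it, against 26.2% of all 1760 genes. The other 6, Dnajb3, Dnajc3, Egr2, Fosl1, Hspa2 and Zfp36l2, were under the floor on both arrays, and no ratio is given for them. Among the 17 genes, 15 (88.2%) had a negative log2 ratio of memory to naive and 2 a positive one. Of all 462 measured genes 60.4% had a negative ratio. Of the 14 member genes bright enough to be called (brighter array at least 2 times the floor), 5 were at least 2-fold lower in memory, namely Jund, Tnfaip3, Ppp1r15a, Hspa8 and Fos. The same rule called 16.1% of all 249 genes of that brightness lower. In the other direction 1 of the 14, Ier3, was at least 2-fold higher, against 16.5% of all such genes. The median log2 ratio of these 17, which passed a filter on low values, was -0.59, and that of all 462 measured genes was -0.12.

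**Figure D1:**
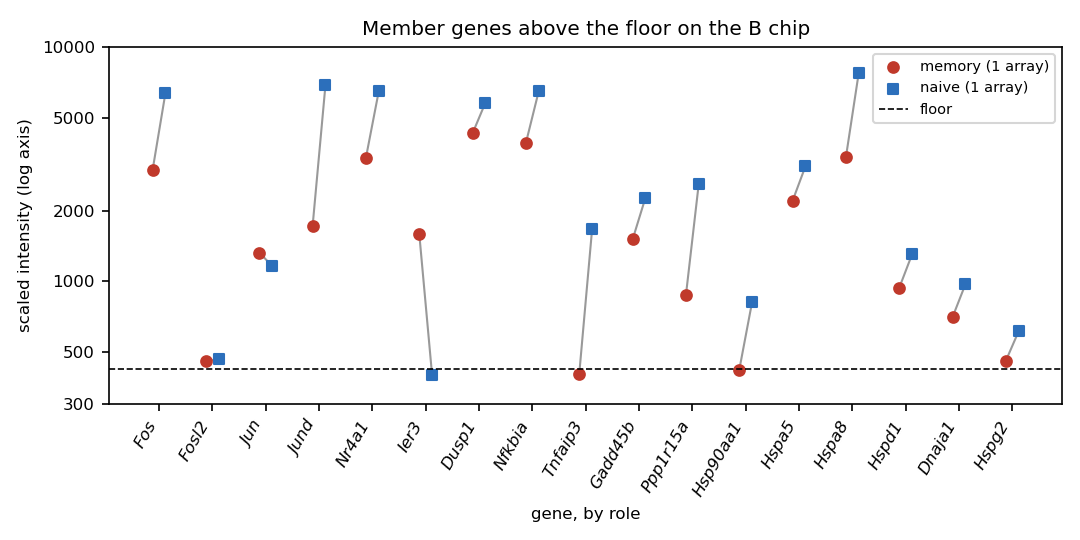
Scaled intensity (log axis) of the 17 member genes above the floor on the B chip, with 1 memory array (red circles, left) and 1 naive array (blue squares, right) per gene, ordered by role. The dashed line is the floor of 423. Lines join the values of 1 gene. Jund, Tnfaip3 and Ppp1r15a have the steepest upward lines towards naive, and Ier3 is the member with a steep line the other way.

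These counts have to be read against the brightness of the probe sets. The memory B array reached 5163 at most and the naive B array 15798, and in the brightest 10% of the 1056 measured gene probe sets the median log2 ratio was -1.13, with 57.5% of them at least 2-fold lower in memory. In the next 10% the median was 0.098, with 10.5% lower. The members Dusp1, Fos, Hspa8, Jund, Nfkbia and Nr4a1 lay in the brightest 10%, where 3 of the 6 were lower, against 45.7% of the 46 genes represented there. The band was set by the brighter array, from 3675 upwards, and Fos, Hspa8, Jund and Nr4a1 reached it in naive cells alone, so that membership of the band and the ratio are not independent. Outside it 2 of 8 bright members were lower, Tnfaip3 and Ppp1r15a, against 9.36% of 203 genes, and Ier3 was higher, against 20.2%. The median log2 ratio was -1.01 for the 6 members and -0.87 for the 46 genes of the brightest band, and -0.48 for the 8 members and 0.16 for the 203 genes outside it. An intensity-dependent (lowess) normalization, which takes the trend with brightness out of the ratios, left 3 members lower, Jund, Tnfaip3 and Ppp1r15a, and Ier3 higher. It called 8.03% of all bright genes lower and 18.1% higher. With it the median of the 17 members was -0.13 and that of all measured genes -0.033, and 11 members were negative and 6 positive. Negative ratios thus made up 64.7% of members and 53.0% of all measured genes after lowess. Quantile normalization left the same 3 members lower, against 8.36% of bright genes, and called 2 higher, Ier3 and Dusp1, against 17.4%.

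**Figure D2:**
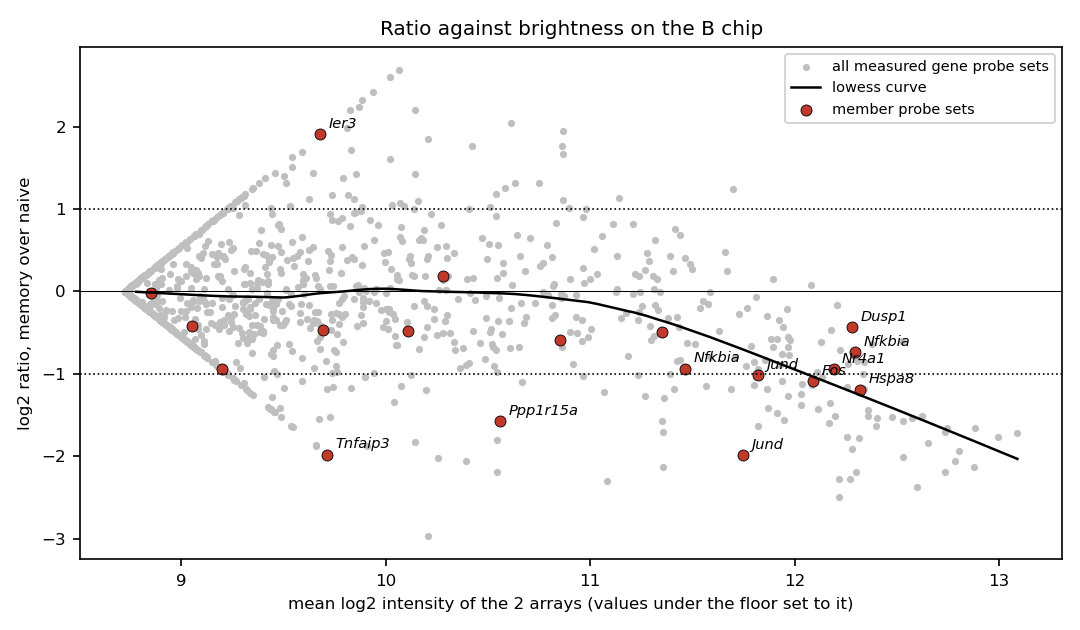
Log2 ratio of memory to naive (vertical) against the mean log2 intensity of both B arrays (horizontal) for the measured gene probe sets (grey) and the member probe sets (red), with the lowess curve in black and dotted lines at 2-fold. The curve bends down at the bright end, where Fos and Hspa8 lie close to it and Dusp1 above it, while Tnfaip3, Ppp1r15a and 1 of the Jund probe sets lie well below it. Points on the slanted edges have 1 array at the floor.

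The AP-1 factors are dimers of FOS and JUN proteins. Jund, the JUN protein that is present also in resting cells, read 1728 in memory against 6861 in naive cells, which is 3.97-fold lower. It kept its 2-fold call after lowess, at 2.43-fold lower. A second Jund probe set read 2545 in memory against 5134 in naive cells, 2.02-fold lower, and its log2 ratio was -0.24 after lowess. The Jund call after lowess therefore rests on 1 of 2 probe sets, and both are of the class whose probes match a sequence family. Jun, the classical early AP-1 subunit, read 1327 in memory against 1163 in naive cells, and its log2 ratio of 0.19 did not pass 2-fold. Fos, its partner, read 2997 in memory against 6366 in naive cells, 2.12-fold lower, and the log2 ratio was -0.052 after lowess. Another Fos probe set was under the floor on both arrays, with -19.9 in memory and 24.2 in naive cells. Fosl2, a FOS-related protein, read 459 in memory against 464 in naive cells, both just above the floor. Within AP-1 the memory array was thus at least 2-fold lower for 1 Jund probe set under both scalings. For the other Jund probe set and for Fos it was so only before lowess, and Jun and Fosl2 were within 2-fold.

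Nr4a1, an orphan nuclear receptor induced by antigen receptor signals, read 3376 in memory against 6474 in naive cells. Its log2 ratio of -0.94 did not pass 2-fold and was 0.19 after lowess. Egr2, a zinc finger factor of the same early wave, was under the floor on both arrays, with 191 in memory and -16.1 in naive cells.

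Ier3, an early gene induced by stress and NF-kappaB that affects cell survival, was the member that went the other way. It read 1588 in memory against 398 in naive cells, where it lay under the floor, so it was at least 3.76-fold higher in memory and at least 3.81-fold after lowess. The brighter value was under 4 times the floor, and with the floor doubled the ratio was 0.91 on the log2 scale and the 2-fold call was lost.

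The genes that end the response differed from each other. Tnfaip3, the A20 protein that removes ubiquitin chains from NF-kappaB signalling proteins, read 404 in memory, under the floor, against 1665 in naive cells. It was at least 3.94-fold lower, and at least 3.90-fold lower after lowess. Its brighter value was under 4 times the floor, and with the floor doubled its log2 ratio was -0.98, just inside 2-fold. Nfkbia, which holds NF-kappaB in the cytoplasm and is itself induced by it, read 3904 in memory against 6482 in naive cells on its brighter probe set. Its other probe set read 2044 in memory against 3907 in naive cells. Their log2 ratios were -0.73 and -0.93, and after lowess 0.50 and -0.49, so the direction of Nfkbia differed between its probe sets after that scaling. Dusp1, the phosphatase that switches off p38, JNK and ERK, read 4287 in memory against 5786 in naive cells. Its log2 ratio was -0.43, above the median of -1.13 of its brightness band, and it was 0.79 after lowess and 1.03 with quantile normalization, where it passed 2-fold in the higher direction. Its direction therefore depended on the scaling.

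The growth arrest and DNA damage genes were both lower by value. Ppp1r15a, also called GADD34, directs protein phosphatase 1 to eIF2 alpha and restores translation after stress. It read 873 in memory against 2603 in naive cells, both above the floor, which is 2.98-fold lower, and 2.93-fold lower after lowess. Gadd45b, which binds the kinase MEKK4 upstream of p38, read 1509 in memory against 2269.9 in naive cells. Its log2 ratio was -0.59, and -0.50 after lowess, and did not pass 2-fold.

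Among the chaperones 1 of 5 measured genes passed 2-fold, and Hsp90aa1 was not bright enough to be called. Of all genes bright enough, 16.1% were lower and 16.5% higher. The probe sets of Hspa8, Hsp90aa1 and Hspa5 on the B chip are, like those of Jund, of the class whose probes match a sequence family. Hspa8, the constitutive HSP70 of the cytosol, read 3389 in memory against 7741 in naive cells, 2.28-fold lower, but its log2 ratio turned to 0.068 after lowess. Hsp90aa1, the inducible cytosolic HSP90, read 419 in memory, just under the floor, against 814 in naive cells, a log2 ratio of -0.95 or lower that stayed at -0.89 after lowess. Hspa5, the HSP70 of the endoplasmic reticulum (BiP), read 2207 in memory against 3092 in naive cells. Hspd1, the mitochondrial HSP60, read 938 in memory against 1303 in naive cells, and Dnaja1, a DNAJ partner of HSP70, read 704 in memory against 970.2 in naive cells. Their log2 ratios were -0.49, -0.47 and -0.46, and none passed 2-fold. After lowess they were -0.13, -0.49 and -0.44, so that all measured chaperones but Hspa8 kept a negative sign under both scalings. A negative ratio was also found in 60.4% of all measured genes before lowess and in 53.0% after it. Hspg2, the perlecan gene, read 459 in memory against 613 in naive cells on 1 probe set and lay under the floor on another.

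**Figure D3:**
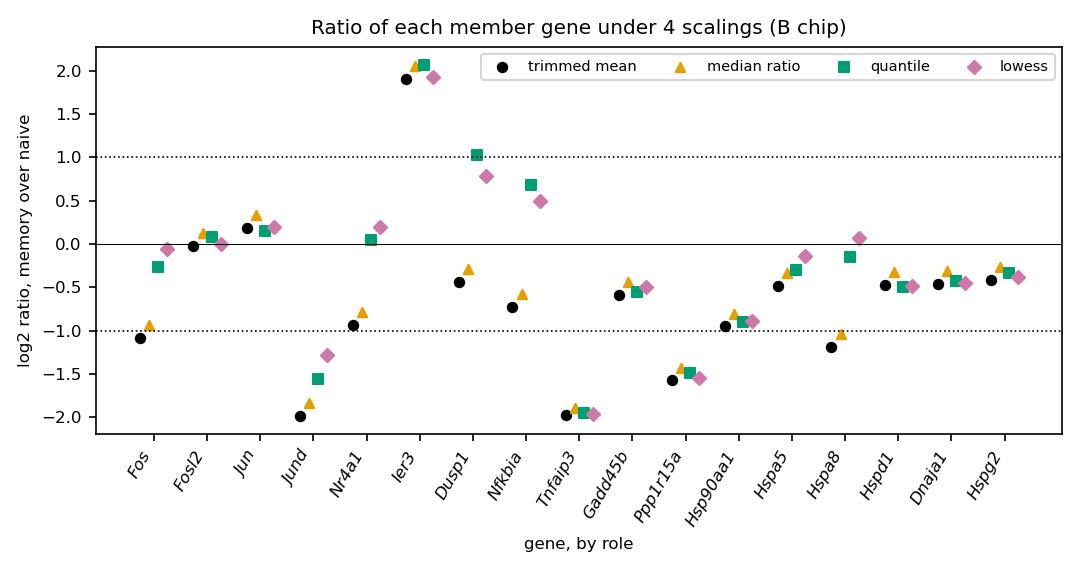
Log2 ratio of memory to naive for the 17 measured member genes on the B chip under 4 scalings (trimmed mean, median ratio, quantile and lowess), with dotted lines at 2-fold. Jund, Tnfaip3 and Ppp1r15a stay below -1 and Ier3 above 1 under all 4, whereas Dusp1, Nfkbia, Nr4a1 and Hspa8 cross zero at the bright end and Fosl2 lies next to zero.

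Promoters are shown for Ier3, Tnfaip3, Ppp1r15a, Jund and Fos, 5 of the 6 members past 2-fold, because the comparison turns on these genes. Hspa8, the other one, is named only. Each line gives the 250 bases before the RefSeq start farthest upstream (build GRCm38.p6), 5′ to 3′ on the strand of the gene, with the bases of a searched motif in capitals. The motifs were the cyclic AMP response element (CRE) TGACGTCA, the AP-1 site TGANTCA, the heat shock element GAANNTTC or TTCNNGAA, the EGR site GCGTGGGCG or GCGGGGGCG, the CArG box of serum response factor and the NF-kappaB site, on both strands, and capitals merge overlapping matches.
Ier3, chr17:35821463-35821712, plus strand: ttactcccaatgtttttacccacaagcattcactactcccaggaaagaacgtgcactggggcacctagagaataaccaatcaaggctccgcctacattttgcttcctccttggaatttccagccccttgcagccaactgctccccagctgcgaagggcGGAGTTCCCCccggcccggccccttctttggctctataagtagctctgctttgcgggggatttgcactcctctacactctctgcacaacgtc
Tnfaip3, chr10:19015411-19015660, minus strand: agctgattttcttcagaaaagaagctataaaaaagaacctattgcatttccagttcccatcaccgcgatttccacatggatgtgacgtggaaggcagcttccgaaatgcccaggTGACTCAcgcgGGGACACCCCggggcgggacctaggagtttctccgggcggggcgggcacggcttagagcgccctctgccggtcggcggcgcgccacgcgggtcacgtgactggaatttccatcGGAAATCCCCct
Ppp1r15a, chr7:45526269-45526518, minus strand: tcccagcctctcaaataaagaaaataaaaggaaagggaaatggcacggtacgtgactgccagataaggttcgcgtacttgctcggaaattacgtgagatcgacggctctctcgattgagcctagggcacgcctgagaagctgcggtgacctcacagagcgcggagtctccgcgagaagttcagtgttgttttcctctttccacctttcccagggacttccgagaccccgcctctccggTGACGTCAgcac
Jund, chr8:70697489-70697738, plus strand: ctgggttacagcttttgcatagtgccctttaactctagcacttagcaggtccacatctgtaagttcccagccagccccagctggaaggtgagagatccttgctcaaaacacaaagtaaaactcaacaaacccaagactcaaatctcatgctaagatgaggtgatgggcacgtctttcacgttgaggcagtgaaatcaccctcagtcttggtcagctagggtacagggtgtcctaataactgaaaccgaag
Fos, chr12:85473640-85473889, plus strand: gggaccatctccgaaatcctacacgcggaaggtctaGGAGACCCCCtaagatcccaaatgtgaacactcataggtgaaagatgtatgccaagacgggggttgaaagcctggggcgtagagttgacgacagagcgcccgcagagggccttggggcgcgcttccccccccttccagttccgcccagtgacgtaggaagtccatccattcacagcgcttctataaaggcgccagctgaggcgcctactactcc

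Tnfaip3 held 1 AP-1 and 2 NF-kappaB matches, Ier3 and Fos 1 NF-kappaB match each and Ppp1r15a 1 CRE, which begins 12 bases before the start. Jund held none of the motifs in this window. Of the 15 member genes measured on the B chip and with a RefSeq promoter, 5 held an NF-kappaB match. They include Ier3, higher in memory, and Tnfaip3, lower in memory. Whether a match goes with the ratio was not tested. Of the 69 member genes 56 had a promoter in the table. The EGR site was found in 9 of them (16.1%) and in 3.04% of all 27025 promoters, the heat shock element in 11 (19.6%) and in 13.0%, and the NF-kappaB site in 8 (14.3%) and in 7.03%. The CRE was in 2, Dusp1 and Ppp1r15a, and in 1.60% of all, the AP-1 site in 3 and in 6.85% of all, and the CArG box in 1, Zfp36, and in 1.41% of all. Member promoters had a median G and C content of 63.6%, against 52% for all promoters. A match is a stretch of letters and was not set against any measure of binding.

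On the memory array of the A chip 28 of 63 member probe sets (44.4%), of 26 genes, were above the noise limit of 184, against 27.4% of all 5541 probe sets with a single symbol. Several early genes were among those at least 4 times above the limit. Egr1, the zinc finger factor of the EGR family, read 1455, Ier2 read 1316, and Junb, an AP-1 subunit that can oppose Jun, read 897. Zfp36, the tristetraprolin that speeds the decay of cytokine mRNA, read 1405. These early transcripts were thus detected in the memory preparation, and no naive level can be given for them.

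The stress factors of the ATF family were next. Atf4, the factor translated when eIF2 alpha is phosphorylated, read 1759 on the memory A array and Atf3, which ATF4 induces, read 956. A probe set annotated as Atf2 read 759, but the array calls it TCRa, a name that points to a T cell receptor chain, and the other Atf2 probe set read 47.9, under the limit. Which transcript that probe set reads is not settled here, so no Atf2 level is taken from it. It is still counted among the 28 probe sets above the limit, and Atf2 is among the 26 genes through it alone. Atf6b read 464, while Atf6 and Atf5 were under the limit.

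Hspa8 read 1793 on the memory A array, Hspa5 read 1265 and Hsp90aa1 read 783, and all 3 were also measured on the B chip. The other chaperones above the limit on A had lower multiples of it. Hspa9, the mitochondrial HSP70, read 479, Hsph1, a nucleotide exchange factor of HSP70, read 334, Hspa1a, the inducible HSP70, read 259 and Hspe1, the partner of HSP60, read 224. On A the probe sets of Hspa8, Hspa5 and Hspe1 are of the sequence-family class. The small heat shock genes Hspb1, Hspb2 and Hspb8 were under the limit. Of 22 DNAJ probe sets 9 were above it, of 7 genes, against 27.4% of all probe sets with a single symbol. Dnajb1, the stress-induced partner of HSP70, gave 482 and 243 on its 2 probe sets. None of the DNAJ probe sets reached 4 times the limit.

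Of the feedback genes on A, Dusp6, a phosphatase of ERK, read 537 and Dusp2 read 194, and the other 4 DUSP probe sets were under the limit. Of all probe sets with a single symbol on that array 27.4% were above it. Nfkbiz, an atypical NF-kappaB inhibitor protein, read 535 and Nfkbib was under the limit. Zfp36l2 read 253 on the memory A array, whereas on the B chip its probe set gave -671 in memory and -559 in naive cells, far below zero. Gadd45a, Fosl1 and Nr4a2 were under the limit on A. Of the genes on both chips, Fosl1 was under the limit in memory on either chip, Dnajc3 read 195 on A and was under the floor on B, and Hspg2 read -38.9 on A.

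**Figure D4:**
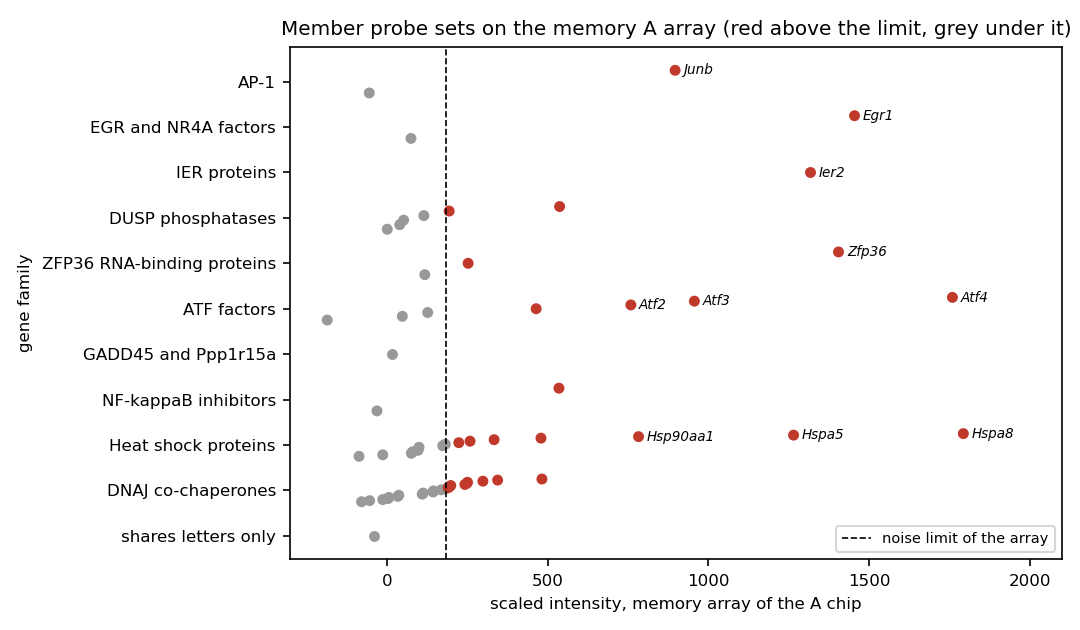
Scaled intensity of the 63 member probe sets on the memory array of the A chip, by gene family, with the noise limit of 184 as a dashed line. The 28 probe sets above it are red, and those at least 4 times above it carry their gene symbol. The point named Atf2 is the probe set that the array calls TCRa. Levels of different probe sets are not comparable with each other.

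Genes of the same pathways that the naming rule leaves out are read against the share of all bright genes of the B chip that passed 2-fold in either direction, 32.5%. Of 9 measured other early response genes 8 were bright enough to be called. Of these 2 were at least 2-fold lower in memory and 0 higher, against 16.1% lower and 16.5% higher of all bright genes, with a median log2 ratio of -0.21, and of 0.50 after lowess, over the 9. Pim1, a serine kinase induced by cytokines, read 2725 in memory against 6448 in naive cells, 2.37-fold lower, and was inside 2-fold after lowess at a log2 ratio of -0.26. Bhlhe40, a repressor induced by T cell activation, read 416 in memory, under the floor, against 879 in naive cells, at least 2.08-fold lower. With 1 array under the floor, any gene bright enough to be called passes 2-fold before lowess. The brightness rule alone thus fixed the call of Bhlhe40, and its log2 ratio was -0.99 after lowess. The next members by alphabet were neither. Btg1, an antiproliferative gene, read 2377 in memory against 3218 in naive cells, and Ccl3, a chemokine, 792 in memory against 985 in naive cells. Cebpb, a leucine zipper factor, read 1655 in memory against 862 in naive cells, and Cxcr4, a chemokine receptor, 663 in memory against 486 in naive cells. Cebpb and Cxcr4 thus had positive log2 ratios, of 0.94 and 0.45, inside 2-fold.

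Of 7 upstream kinases and factors with a symbol on the B chip, 2 were measured, against 26.2% of all 1760 genes. Both lay under the floor in memory. Elk1, a partner of serum response factor, read 205 in memory against 565 in naive cells, and Mapkapk2, the kinase below p38, read 24.8 in memory against 458 in naive cells. Neither reached 2 times the floor in naive cells, so neither was bright enough to be called, and no direction is read from them.

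Of 9 measured further chaperone and folding genes 7 were bright enough to be called. Of these 1 was higher and 2 were lower, against 16.5% higher and 16.1% lower of all bright genes. The median log2 ratio of the 9 was -0.33, and -0.27 after lowess. Fkbp4, a co-chaperone of HSP90, read 201 in memory, under the floor, against 888 in naive cells, at least 2.10-fold lower. After lowess its log2 ratio was -1.01, just past 2-fold. Ppia, the cyclophilin A prolyl isomerase, read 2579 in memory against 6229 in naive cells, 2.42-fold lower, and its log2 ratio was -0.36 after lowess. Cct6a, a subunit of the TRiC chaperonin, was at least 2.14-fold higher, with 905 in memory against 107 in naive cells, under the floor. For Fkbp4 and Cct6a, each with 1 array under the floor, the brightness rule alone fixed the call before lowess. Other chaperonin subunits did not pass 2-fold. Cct2 read 802 in memory against 1075 in naive cells, Cct4 read 1118 in memory against 1212 in naive cells, and Cct7 read 998 in memory against 710.3 in naive cells. Calr, a chaperone of the endoplasmic reticulum, read 1063 in memory against 2097 in naive cells, a log2 ratio of -0.98.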

How the data were processed

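RNA was extracted with Trizol and labelled as cRNA following the array maker, per the labels. The deposited intensity values are whole numbers, some of them negative. The authors appear to have scaled them, since the 2% trimmed mean was 150.2 to 150.4 on all 4 arrays. The software is not named in the sources used here. Gene symbols came from the platform annotation. Its Entrez numbers (5551 on A, 1993 on B) were checked against RefSeq, assembly GRCm38.p6, which changed 0 symbols.

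Without the 55 controls, the arrays of each chip were brought to one 2% trimmed mean (numpy 2.4.6, scipy 1.17.1). The 95th percentile of the negative values, by size, on the noisier array was the floor, to which lower values were raised. On A the limit was that of the memory array. A call of 2-fold required the brighter array to reach 2 times the floor. Where the other array was under the floor, that requirement alone gave the call before lowess. Lowess normalization (statsmodels 0.14.6, span 0.4) used probe sets above the floor on both arrays. The procedure was also run on simulated data, brighter than these, with planted increases and decreases in equal number and no trend of ratios with brightness. That run therefore does not show how the rule behaves on the B arrays, where such a trend is present. Precision is limited by the number of arrays. Members, lists and alternatives were chosen with earlier results of these data known. All measured members on B are named, as are those on A at least 4 times above the limit, other named members are examples chosen after their values were seen, and other lists are represented by genes past 2-fold and the next 4 by alphabet.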

Additional observations from a re-analysis of the deposited data

Results flagged for a closer look

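The naive array of the A chip entered no comparison, and 10 of its 63 member probe sets were above that array's own noise limit of 296. Because the naive A values did not follow their probe sets, their overlap with members above the limit on the memory A array cannot be read. Over all gene probe sets 18.4% were above the limit on the naive A array.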

How the results depend on the processing

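The count of 5 lower members was 3 with quantile normalization, 3 with lowess, 3 without sequence-family probe sets, 1 with only probe sets that carry no class letter (3 measured genes), 8 at 1.5-fold and 2 at 3-fold, and it was 4 or 5 under the other settings. The count of 1 higher member was 2 with quantile normalization, where Dusp1 joined Ier3, and 0 with the floor doubled, with the brighter array required at 4 times the floor, or with only probe sets that carry no class letter. The median of -0.59 became -0.44 with median-ratio scaling, -0.30 with quantile normalization, -0.13 with lowess and -0.73 with only probe sets that carry no class letter. It stayed within 0.1 otherwise and was negative in every setting run. Jund and Hspa8, read only by sequence-family probe sets, were the lower members left out without that class. The Hspa8 ratio turned to 0.068 with lowess. The Fos call was lost with median-ratio scaling (-0.94), quantile (-0.26) and lowess, the Hspa8 call with quantile (-0.15), and the calls of Tnfaip3 and Ier3 with the floor doubled.

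Over all gene probe sets, 113 were lower and 67 higher, and this balance turned with median-ratio scaling (91 lower and 94 higher), quantile normalization (73 and 100) and lowess (54 and 76). The lower count was 207 with the floor halved, 74 with it doubled, 185 at 1.5-fold, 39 at 3-fold and 74 with the brighter array required at 4 times the floor. The higher count was 112 with the floor halved, 25 with it doubled, 109 at 1.5-fold, 19 at 3-fold and 25 with that requirement. On the memory A array 28 members were above the limit, 42 with it halved, 15 with it doubled and 18 with the floor of the noisier array. No paired analysis was possible because each group has 1 array per chip, and leaving out an array would leave no comparison.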

Other observations

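On the memory array of the A chip, genes of the same pathways outside the naming rule were above the noise limit in 13 of 26 other early response genes, 4 of 19 upstream kinases and factors and 12 of 24 further chaperone and folding genes, against 29.5% of all 4775 genes there, each by its brightest probe set. Hmox1, the haem-degrading stress enzyme that is also abundant in red pulp macrophages, read 2224 and Pdia3, a disulfide isomerase of the endoplasmic reticulum, read 1646. Among early response genes Rgs2, a regulator of G protein signalling, read 1293, Irf1, an interferon regulatory factor, read 1268, and Socs3, a cytokine feedback inhibitor, read 671. Rela, the p65 subunit of NF-kappaB, read 946. These genes were chosen after their values were seen, and no naive level is given for them.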
